A study of Mus musculus with 2 samples.

Results

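The Mir26 family comprises 3 microRNA (miRNA) genes of the mouse, Mir26a-1, Mir26a-2 and Mir26b. Each lies inside a gene for a small phosphatase of the Ctdsp family. The 3 rows were found by Ensembl identifier, matched to GENCODE symbols, among the 1973 miRNA genes counted. The tissue was neural tube, the precursor of brain and spinal cord. It came from healthy embryos of strain B6NCrl at embryonic day 11.5, with males and females pooled and no allele or treatment named. There was 1 group of 2 biological replicates, a pool of 109 embryos in replicate 1 and of 88 in replicate 2, so no comparison between conditions exists. RNA shorter than 30 nt was sequenced, and the counts used are reads on the gene's own strand.

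A miRNA is cut from a hairpin-shaped transcript, and 1 arm of the hairpin, the 5p or the 3p arm, usually gives most of the mature RNA. Bases 2 to 8 of the mature miRNA, the seed, pair with target mRNAs and lower their output. The host genes Ctdsp1, Ctdsp2 and Ctdspl encode phosphatases that act on the tail of RNA polymerase II and that the repressor Rest brings to neuronal genes outside neurons. In zebrafish, miR-26b is known to repress the transcript of its own host, ctdsp2, as neurons differentiate. The mRNAs of the hosts were not measured here.

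The mature sequences are shown because they tell which arms the members share. They are from RefSeq (GRCm38.p6), which held all 3 members, and the capitals mark the seed.
miR-26a-5p, from Mir26a-1 and Mir26a-2: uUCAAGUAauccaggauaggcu
miR-26b-5p: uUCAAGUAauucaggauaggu
miR-26a-1-3p: cCUAUUCUugguuacuugcacg
miR-26a-2-3p: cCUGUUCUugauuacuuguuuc
miR-26b-3p: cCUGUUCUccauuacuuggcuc

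The 5p arms carried a single seed, and no other mature miRNA of the RefSeq table had it. Aligned from the 5′ end without gaps, miR-26a-5p and miR-26b-5p differed at 2 of 21 positions, C11U and C21U, counted from 1 at the 5′ end with the base of miR-26a-5p first. Both positions lie outside the seed. The 3p arms differed more. Between miR-26a-1-3p and miR-26a-2-3p there were 6 substitutions over 22 positions, of which A4G lies in the seed. The seed of miR-26a-2-3p was also that of miR-26b-3p, and these differed at 4 positions, all outside the seed. The RefSeq table held 4 mature miRNAs with that 3p seed, the others being miR-6932-3p and miR-7039-3p.

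The hairpins show which stretches a read can be placed on. The capitals mark the mature arms.
Mir26a-1: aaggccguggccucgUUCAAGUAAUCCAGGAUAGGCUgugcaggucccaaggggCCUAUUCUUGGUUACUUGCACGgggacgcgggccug
Mir26a-2: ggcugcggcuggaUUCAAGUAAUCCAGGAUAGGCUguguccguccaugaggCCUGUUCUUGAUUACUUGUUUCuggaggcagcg
Mir26b: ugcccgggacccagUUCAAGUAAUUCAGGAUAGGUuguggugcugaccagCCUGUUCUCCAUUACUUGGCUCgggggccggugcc

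Mir26a-1 and Mir26a-2 shared an unbroken run of 25 nt, uucaaguaauccaggauaggcugug, which holds the whole 22 nt of miR-26a-5p and the 3 bases after it. Mir26b shared no more than 11 nt with Mir26a-1 and 10 nt with Mir26a-2. Of all hairpins in GENCODE M21, 2 held miR-26a-5p and 1 held each of the other mature sequences of the family. Outside the family, the longest run shared with any other hairpin was 10 nt for Mir26a-1 and 11 nt for Mir26a-2 and for Mir26b. The hairpins were alike in other respects, at 90, 84 and 85 nt for Mir26a-1, Mir26a-2 and Mir26b. Their GC content was 60.0%, 53.6% and 58.8%, and their predicted folding energy was -49.4, -44.5 and -43.5 kcal/mol.

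All 3 hairpins lie on the plus strand in introns of their hosts in GRCm38, the assembly also called mm10. Mir26a-1 (ENSMUSG00000065513.1) is at chr9:119031796-119031885, in intron 5 of the 8-exon transcript Ctdspl-201, 1543 nt after the exon before it. Mir26a-2 (ENSMUSG00000065430.1) is at chr10:126995530-126995613, in intron 5 of the 8-exon transcript Ctdsp2-202, 241 nt before the next exon. Mir26b (ENSMUSG00000065468.1) is at chr1:74394310-74394394, in intron 4 of the 7-exon transcript Ctdsp1-201, 234 nt after one exon and 245 nt before the next. In each of these transcripts, 2 exons stand between that intron and the last exon. The introns differ in size, with 3283 nt in Ctdspl, 1946 nt in Ctdsp2 and 564 nt in Ctdsp1. For Mir26a-2 there is an exception to the intronic place, since 2 shorter transcripts of Ctdsp2 are annotated to start at 126995613, the last base of the hairpin, and so overlap it by 1 nt.

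**Figure D1:**
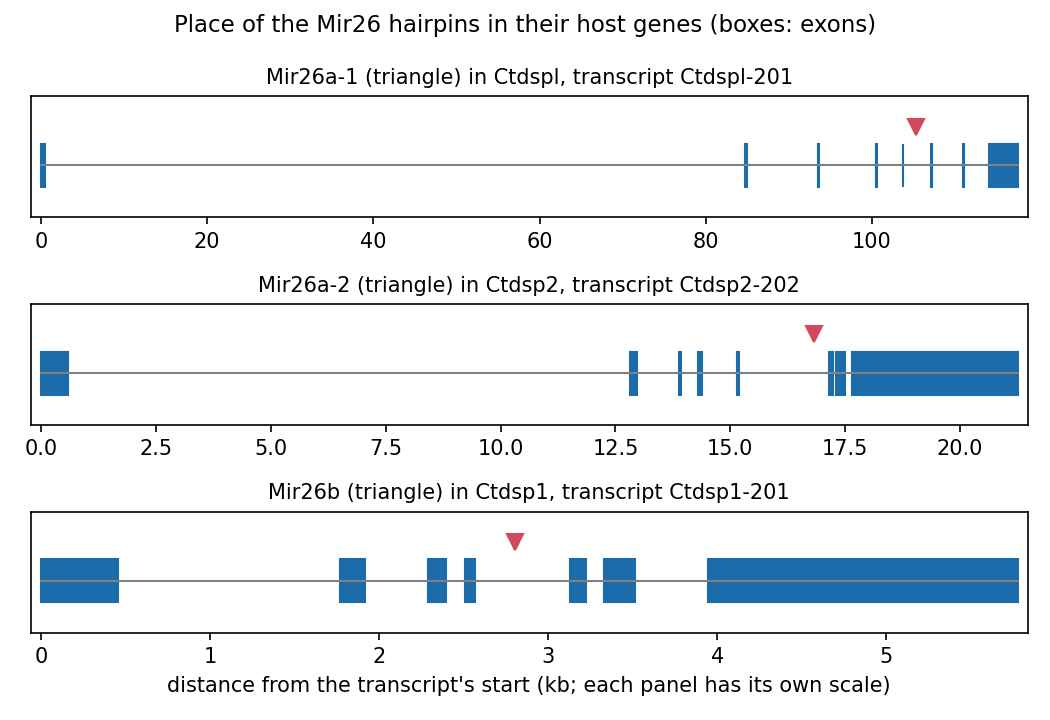
Exons (boxes) of the host transcripts Ctdspl-201, Ctdsp2-202 and Ctdsp1-201 against distance from the transcript's start in kb, with a triangle at the Mir26 hairpin; each panel has its own scale. The hairpin lies in intron 5, intron 5 and intron 4, and the host of Mir26b is the shortest of the 3 at 5777 nt.

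Nearly all counts of the family came from Mir26b. It held 39661 own-strand counts in replicate 1 and 44869 in replicate 2. As counts per 1000000 (CPM) of the own-strand counts on all miRNA genes, 3708662 and 4055883 in the libraries, this was 10694 (95% exact binomial interval 10590 to 10799) and 11063 (10961 to 11165). The mean was 10878 ± 261 CPM (SD, n = 2). Scaled by these totals, the libraries lay close together, and neither interval reached into the other. Another scaling, given below, set them further apart. Mir26b ranked 18 of 1973 genes in replicate 1 and 16 in replicate 2, and 8 and 6 among the 654 genes that lie wholly in introns of a protein-coding gene on the same strand.

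Mir26a-2 held 110 counts in replicate 1 and 133 in replicate 2. These were 29.7 CPM (95% exact binomial interval 24.4 to 35.7) and 32.8 CPM (27.5 to 38.9), with a mean of 31.2 ± 2.21 CPM (SD, n = 2). The intervals of the libraries overlapped widely, and the gene ranked 276 and 259. Mir26a-1 held the fewest counts, 34 and 35. These were 9.17 CPM (6.35 to 12.8) and 8.63 CPM (6.01 to 12.0), with a mean of 8.90 ± 0.381 CPM (SD, n = 2). Its ranks were 321 and 310. Both genes stood above 0.809 CPM in replicate 1 and 0.740 CPM in replicate 2, the limits that a count of 0 allows at 3 counts. Counting error alone enters these intervals and limits.

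The order of the members was the same in both libraries, Mir26b above Mir26a-2 above Mir26a-1, and no interval of one gene met that of another. Within replicate 1, Mir26b had 1167-fold the counts of Mir26a-1 (95% exact interval 835 to 1685) and 361-fold those of Mir26a-2 (299 to 439). In replicate 2 the ratios were 1282 (922 to 1841) and 337 (285 to 403). Per nt of hairpin these became 1235 and 356 in replicate 1 and 1357 and 333 in replicate 2. The hairpins are of like length, at 90, 84 and 85 nt for Mir26a-1, Mir26a-2 and Mir26b, so this division could change the ratios only little. Mir26a-2 had 3.24-fold the counts of Mir26a-1 in replicate 1 (2.18 to 4.90) and 3.80-fold in replicate 2 (2.60 to 5.68), or 3.47-fold and 4.07-fold per nt of hairpin. With 2 libraries the smallest two-sided p of a permutation test is 0.5, so the order rests on both libraries giving it. How evenly different small RNAs are captured was not measured, and these are ratios of counts.

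**Figure D2:**
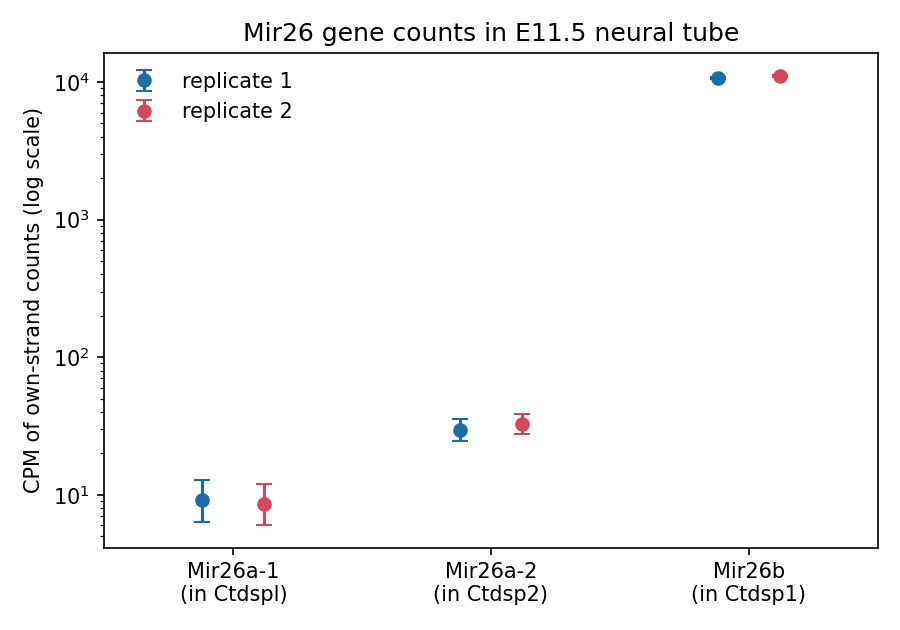
Own-strand CPM (log axis) of Mir26a-1, Mir26a-2 and Mir26b in replicates 1 and 2; bars are 95% exact binomial intervals, counting error only. Mir26b lies near 10878 CPM, Mir26a-2 near 31.2 CPM and Mir26a-1 near 8.90 CPM. Under this scaling by total counts the libraries lie close together for each gene.

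As a family the genes took 1.07% of own-strand counts in replicate 1 and 1.11% in replicate 2, a mean of 1.09% ± 0.0262 (SD, n = 2). Mir26b made up 99.6% of the family's counts in both libraries. Mir26a-2 made up 0.276% (95% exact binomial interval 0.227 to 0.333) and 0.295% (0.247 to 0.350), and Mir26a-1 0.0854% (0.0592 to 0.119) and 0.0777% (0.0541 to 0.108). No member had a read on the opposite strand in either library. The same held for 638 of the 654 genes wholly in introns of a coding gene and 189 of the 200 that overlap a host's exon, whatever their own counts.

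Reads that mapped to several places stood in a row of their own and were counted for no gene. They came to 2153217 in replicate 1 and 2088167 in replicate 2, or 58.1% and 51.5% as many as all own-strand counts. A read that lies within the 25-nt run shared by Mir26a-1 and Mir26a-2 matches both hairpins, and this run holds the whole of miR-26a-5p. The counts of Mir26a-1 and Mir26a-2, 144 together in replicate 1 and 168 in replicate 2, thus describe reads placed at a single hairpin, and not the amount of miR-26a. How many of the reads mapped to several places were miR-26a was not analysed here, and the part of the shared run in the difference from Mir26b was not tested. Counts were per hairpin, so the 5p and 3p arms could not be told apart either.

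**Figure D3:**
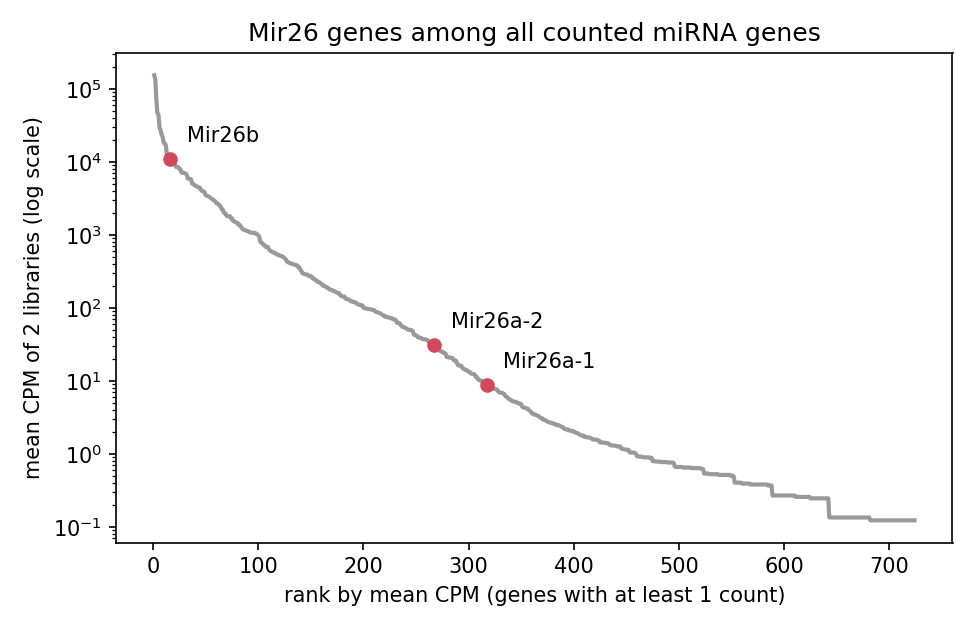
Mean CPM of the 2 libraries (log axis) against rank, for the miRNA genes with at least 1 count; points mark the Mir26 genes. Mir26b sits on the steep left end of the curve, while Mir26a-2 and Mir26a-1 sit in its middle at 31.2 and 8.90 CPM.

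The genes nearest to each member over the 2 libraries, by distance in log2(CPM + 1), show the company it kept. Nearest to Mir26b were Mir196b of a Hox cluster (distance 0.06, 11059 ± 664 CPM), Mir182 of a sensory cluster (0.07, 11279 ± 295 CPM) and Mir93 in Mcm7 (0.13, 10234 ± 54.6 CPM), each with n = 2. The range of Mir196b over the libraries, 10590 to 11529 CPM, enclosed that of Mir26b. Mir182 lay above that range, at 11071 CPM in its lower library, and Mir93 below it, at 10273 CPM in its higher one. Nearest to Mir26a-2 were Mir7689 (0.11), Mir1198 (0.15) and Mir466n (0.17). Nearest to Mir26a-1 were Mir199a-1 (0.10), Mir669h (0.17) and Mir122, the liver miRNA (0.24), which held 7.85 ± 0.0497 CPM. Over 2 libraries of a single group this is likeness of level alone.

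The libraries were compared gene by gene with a two-sided exact binomial test, adjusted by Benjamini-Hochberg over 444 tested genes, those whose counts summed to 10 or more. All 3 members were tested and 1 passed, beside 53.2% of all tested genes. Mir26b was higher in replicate 2 by 1.03-fold, a log2 ratio of replicate 1 over replicate 2 of -0.05 with a counting SE of 0.0099 (exact binomial adjusted p = 2.75e-06). Genes called higher in replicate 2 were 7.88% of those tested, and those higher in replicate 1 were 45.3%. Under this scaling by total counts, 33 of the 444 genes had a smaller absolute log2 ratio than Mir26b, and the coefficient of variation of Mir26b over the libraries was 2.40%. Mir26b had 84530 summed counts, and the test sets 2 libraries, not conditions, against counting noise.

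The other members did not pass. Mir26a-2 had a log2 ratio of -0.14 with a counting SE of 0.19 (exact binomial adjusted p = 0.569), and Mir26a-1 one of 0.09 with a counting SE of 0.34 (exact binomial adjusted p = 0.902). At these counts a difference of the size seen for Mir26b was not detectable in either gene. Scaling by total counts put the median of all tested genes at 0.27, toward replicate 1. TMM factors (trimmed mean of M values) from edgeR moved every log2 ratio by -0.29. Under TMM the log2 ratio was -0.34 for Mir26b (exact binomial adjusted p = 2.4e-250), and over all alternatives the adjusted p of this gene ran from 2.4e-250 to 4.49e-06. Its place among the genes moved with the scaling, since under TMM 254 of the 444 genes had a smaller absolute log2 ratio than Mir26b and its coefficient of variation was 16.4%. The common dispersion of edgeR, which also uses TMM, gave 17.6% beyond counting error over all tested genes. Under TMM it was -0.43 for Mir26a-2 (exact binomial adjusted p = 0.0515), and that of Mir26a-1 turned to -0.20 without passing (exact binomial adjusted p = 0.746). Genes called higher in replicate 1 and in replicate 2 were then 18.2% and 21.6% of those tested.

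**Figure D4:**
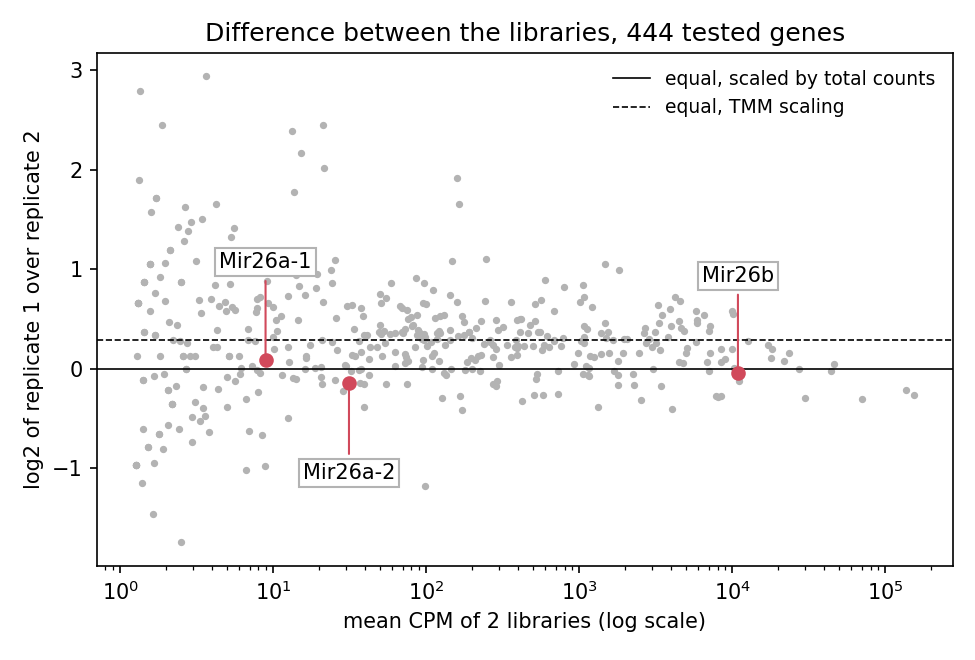
Log2 ratio of replicate 1 over replicate 2 against mean CPM (log axis) for the 444 tested genes, with the Mir26 genes in red; the solid line marks equality under total counts and the dashed line equality under TMM. Mir26b at -0.05 and Mir26a-1 at 0.09 lie near the solid line, and Mir26a-2 at -0.14 just below it.

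Other miRNA families in introns of paralogous hosts were set beside the Mir26 genes. In the Pank hosts, which encode pantothenate kinases of coenzyme A synthesis, the hairpins of Mir103-1 and Mir103-2 both hold miR-103-3p, while each mature arm of Mir107 is held by 1 hairpin. Mir107 held 1250 ± 74.3 CPM, Mir103-2 62.4 ± 10.9 CPM and Mir103-1 6.86 ± 0.980 CPM (SD, n = 2 each). Mir107 had 16.8-fold the summed counts of the Mir103 genes in replicate 1 (95% exact interval 14.9 to 19.0) and 19.7-fold in replicate 2 (17.3 to 22.4). The like ratio of Mir26b to the summed Mir26a genes was 275 (234 to 327) and 267 (230 to 313). In both families the gene with no shared arm had the most counts in both libraries. The ratio of counts was larger in the Mir26 family, with intervals, of counting error only, that do not meet. Reads that fit both hairpins of a shared arm were left out of the counts. The Mir26a and Mir103 genes thus lose such reads by the counting rule, while Mir26b and Mir107 do not. The order and the ratios therefore cannot compare amounts of mature miRNA, and why the ratios differ between the families was not tested.

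In the remaining pairs both copies hold a shared arm. Mir218-1 in Slit2 and Mir218-2 in Slit3, whose hosts encode axon guidance ligands, both hold miR-218-5p and had 36.6 ± 0.237 and 291 ± 17.5 CPM (SD, n = 2). Mir218-2 had 7.65-fold the counts of Mir218-1 in replicate 1 (95% exact interval 6.39 to 9.22) and 8.26-fold in replicate 2 (6.96 to 9.85). Mir128-1 in R3hdm1 and Mir128-2 in Arpp21 both hold miR-128-3p and had 110 ± 41.5 and 69.6 ± 20.6 CPM. The unequal counts of Mir26a-2 and Mir26a-1, 3.24-fold and 3.80-fold, fell between those of the Mir218 and the Mir128 pairs. Of the 7 genes in these lists, 4 were higher in replicate 1 and 3 did not pass the exact binomial test under total counts, where the shares over all tested genes were 45.3% toward replicate 1 and 7.88% toward replicate 2. With TMM 4 of the 7 passed, 2 toward each library, beside 18.2% and 21.6% of all tested genes toward replicates 1 and 2.

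**Figure D5:**
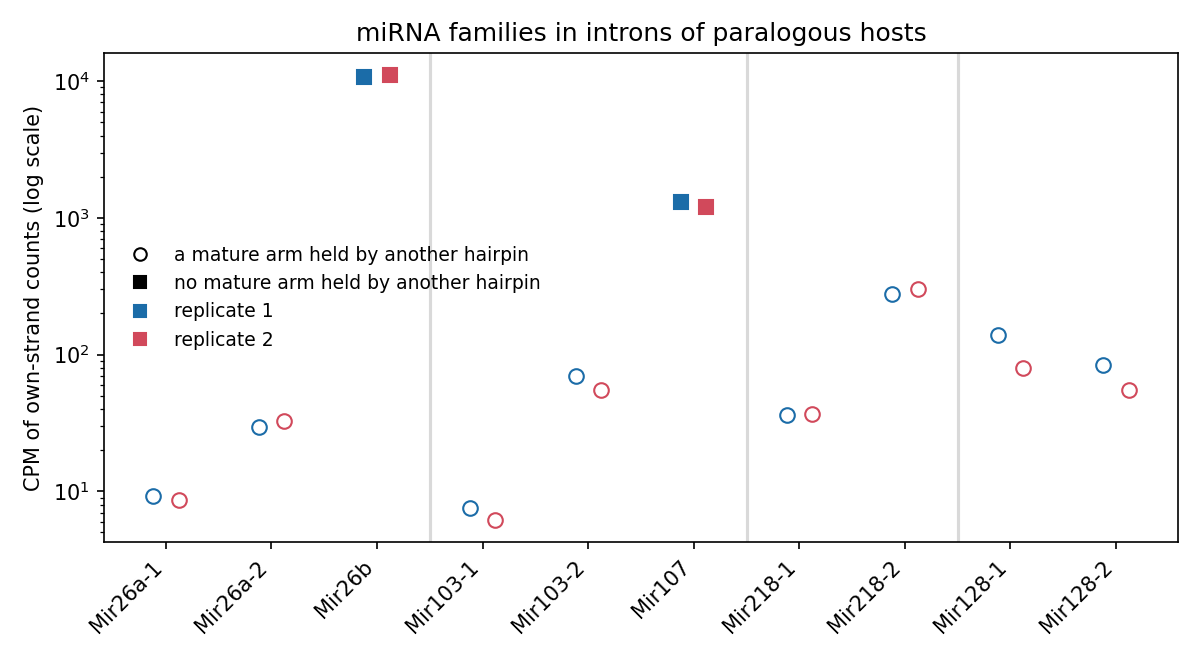
Own-strand CPM (log axis) in replicates 1 (blue) and 2 (red) of the Mir26 genes and of miRNA genes in Pank, Slit, R3hdm1 and Arpp21 hosts. Open circles mark genes with a mature arm that another hairpin also holds, filled squares those without. Mir26b and Mir107, the filled squares, stand highest at 10878 and 1250 mean CPM. Reads that fit several hairpins are left out, so the open circles do not show amounts of mature miRNA.

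The same property was read over all genes. Of 103 counted genes with a mature arm that another GENCODE hairpin also holds, 52 had at least 10 summed counts, with a median of 70.9 CPM among those 52. Of 813 genes with no listed arm found in more than 1 GENCODE hairpin, 343 had at least 10 summed counts, with a median of 87.7 CPM among those 343. Over all genes of each class, without the filter on counts, the order was the other way. The medians were then 2.31 CPM with a shared arm and 0.539 CPM without, and 50.5% and 42.2% of the genes had at least 10 summed counts. A further 1057 genes had no mature entry in the table used. These are descriptions of classes that also differ in other ways, and no test was made between them.

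Rest recruits the host phosphatases of the Mir26 genes, and miRNA genes known as bound by Rest were therefore read from the same table. Of 12 listed genes, 11 had a row used here and 10 were tested. Under total counts 2 were higher in replicate 1, 1 was higher in replicate 2 and 7 did not pass, with a median log2 ratio of 0.27, which was also that of all tested genes, of which 53.2% passed. With TMM 3 of the 10 passed, all toward replicate 2, beside 21.6% of all tested genes in that direction. Mir139 led the list at 2228 ± 53.5 CPM, followed by Mir153 in Ptprn2, a miRNA of neurons, at 782 ± 116 CPM and Mir9-3, of neural progenitors, at 200.1 ± 0.458 CPM (SD, n = 2 each). Mir26b exceeded the list's summed counts, 12784 and 13509, in both libraries. Mir29b-1 had 2 counts in each library and was not tested, and the copies of Mir9 share mature sequence, so the list too covers only reads placed at a single hairpin. Shared arms could not be read for the copies of Mir124a, which had no mature entry in the table used.

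The tissue label was checked against markers. Of 11 neural genes, 10 had a row used here and each had counts in both libraries, led by Mir92b at 4979 ± 383 CPM and Mir137 at 1965 ± 289 CPM (SD, n = 2). These made up 85.0% and 86.0% of the neural counts in replicates 1 and 2. Mir124a-1 (2.46 CPM), Mir9-2 (2.31 CPM) and Mir124a-3 (1.56 CPM) stood below the liver gene Mir122 (7.85 CPM) in mean level, over reads placed at a single hairpin. The summed share of all 10 neural genes was 0.872% in replicate 1 and 0.752% in replicate 2, below the 1.07% and 1.11% of the Mir26 family. The endothelial Mir126a, at 2.49% and 2.23%, exceeded both. These shares too cover only reads placed at a single hairpin. The counted copies of Mir9 and Mir128 each hold an arm that another hairpin also holds, while Mir126a holds none. For the copies of Mir124a and for Mir122 the table used held no mature entry, so shared arms could not be read. The low counts of the Mir124a copies are thus not a measure of their mature miRNA. Other markers ranged from 0.647% and 0.536% for the smooth muscle genes Mir143 and Mir145a down to 0.000782% and 0.000789% for the liver gene Mir122. Which cells of the dissected tissue gave the Mir26b reads was not tested, and in such tissue fewer cells of a type and less RNA per cell cannot be told apart.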

How the data were processed

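Small RNA libraries of 2 pools of mouse neural tube were used. The deposited values are whole-number read counts per miRNA gene, made for mm10 and GENCODE M4, per the file headers. Aligner and counter: not given in the sources used here. Each library has 3 unnamed columns, read from their layout as either strand, own strand and opposite strand. Rows that name no gene (56.5% and 47.0% of reads) were left out of totals. Columns without a sample numbered 0.

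Symbols and coordinates came from GENCODE M21 (GRCm38) for 1894 of 1973 genes, and sequences from RefSeq (GRCm38.p6). Folding energies came from RNAfold 2.7.2. CPM was the own-strand count per 1000000 own-strand counts. A pseudocount of 0.5 counts entered the log2 ratios, and likeness used log2(CPM + 1). Genes with at least 10 summed counts were compared between libraries (exact binomial, two-sided, Benjamini-Hochberg adjusted, threshold 0.05). This test was checked on simulated data drawn with counting error alone and a known scaling, as the test itself assumes. That check does not cover spread between replicates or an unsure scaling. Under R 4.3.3, edgeR 4.0.16 gave TMM factors and the dispersion, and DESeq2 1.42.0 gave size factors. Other steps used Python 3.11.15 and scipy 1.17.1. The reads carry no stated molecular identifiers, so intervals and p-values take PCR copies as independent. The p-values set the difference between these 2 libraries against counting error alone and hold no estimate of the spread between replicates.

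The members and lists were chosen with earlier results of these data known. Named genes were the 3 members, the 3 genes nearest to each by level, and up to 3 leading genes of each list, and other genes of the lists are named to describe their families.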

Additional observations from a re-analysis of the deposited data

How the results depend on the processing

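Alternatives were TMM factors, DESeq2 size factors, counts on either strand, no filter and at least 100 summed counts for the test, and leaving out each library, counting per 1000000 of all reads or dividing by hairpin length for levels and ratios. The log2 ratio of Mir26a-1 between the libraries, 0.09 under total counts, reversed to -0.20 with TMM and -0.18 with DESeq2 size factors and passed the test under none. It was not tested at 100 summed counts, where this gene was left out. Mir26b stayed past the test and higher in replicate 2 under all 5 alternatives, from -0.05 to -0.34. Mir26a-2 passed under none, from -0.14 to -0.43. Per 1000000 of all reads, the levels fell to 4.28 for Mir26a-1, 15.1 for Mir26a-2 and 5255 for Mir26b, since that total includes unmapped reads and those counted for no gene. Of the 43 alternative values, 33 others kept their direction and side of the threshold or moved by less than 1 SD between the libraries. Part of these was fixed in advance and shows no robustness. With 2 libraries, leaving out 1 always moves a mean by less than 1 SD. No member had opposite-strand reads, so counts on either strand left the ratios between members unchanged. The hairpins are of like length, so dividing by it could move those ratios only little. Changing the filter left every log2 ratio as it was and could move only the adjusted p. The 5 counts of genes called in all ran from 177 to 245, beside 236, and stayed within 1.5 times of it. No paired analysis was possible because there is 1 group. With 34 and 35 counts, depth limits what can be said of Mir26a-1.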
